A study of Sus scrofa domesticus with 12 samples.

Results

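Genes were taken as ubiquitin ligase receptors of 6 name families when the gene name was FBXO, FBXL, FBXW, KLHL, ASB or TRIM followed by a number and nothing else. The rule used names alone and found 74 of the 11506 genes of the table, namely 21 FBXO, 9 FBXL, 3 FBXW, 12 KLHL, 10 ASB and 19 TRIM genes. Bulk RNA-seq had been made from the peroneous tertius (PT), the main dorsiflexor of the hindlimb, of female Yorkshire Cross pigs that were young adults when the study ended. The 2 Sham limbs had a sham procedure, and all other limbs had volumetric muscle loss (VML), a block of tissue cut out of the middle of the PT. The defect was left empty in 2 limbs (No repair), was filled with a hyaluronic acid hydrogel in 2 limbs (HA), or received an acellular extracellular matrix (ECM) in 6 limbs (ECM-SIS). By the study's account the sequenced ECM limbs were divided evenly between ECMs of porcine small intestinal submucosa and of urinary bladder. The labels call all 6 limbs ECM-SIS and do not say which limb had which product, so that the 6 were kept as 1 group. The 12 limbs came from 11 pigs, since pig 017 gave a No repair and an HA limb. Each library held whole tissue, so that remaining muscle, scar and other cells were read together.

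Ubiquitin ligases mark chosen proteins with ubiquitin, most often for removal by the proteasome. F-box proteins (FBXO, FBXL and FBXW) bring substrates to ligases built on cullin CUL1, kelch-like proteins (KLHL) to those built on CUL3 and ankyrin repeat proteins with a SOCS box (ASB) to those built on CUL5, whereas most tripartite motif proteins (TRIM) carry a RING domain and act as ligases themselves. Skeletal muscle is known for a set of its own, which includes atrogin-1 (FBXO32) and MuRF1 (TRIM63), the classical ligases of muscle wasting, KLHL41, which stabilizes the thin filament protein nebulin, and TRIM72 (MG53), which acts in membrane repair.

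Levels are TPM, a gene's share of the transcripts of a library with transcript length taken into account, so that they can be set side by side between genes, while the read depth behind them is unknown. Differences are log2 fold changes of TPM + 0.5 with their standard error (SE), tested with limma and adjusted by the Benjamini-Hochberg method over the 8782 genes that reached 1 TPM in every limb of at least 1 group, at a threshold of 0.05. Most genes stood higher in TPM in injured limbs. Over the 8782 genes the log2 fold change had a median of 0.73 for VML-injured against Sham limbs, and 0.01 after each library was rescaled by the trimmed mean of its gene ratios. Rescaled values are therefore given beside the deposited ones. Summed TPM of 16 muscle fiber markers was 137038 and 134497 in the Sham limbs and 8439 to 66815 TPM (median 33700.2) in the injured limbs. Summed fibroblast markers were 1209 and 1716 TPM in Sham limbs and 38958 to 101586 TPM (median 73779) in injured limbs, and macrophage markers 32.9 and 53.1 TPM against 644 to 1679 TPM (median 1103). By limma 10 of 16 fiber markers fell, and 11 of 11 fibroblast and 9 of 9 macrophage markers rose. Of the injured limbs 3, the HA limb of pig 016 and the ECM-SIS limbs of pigs 014 and 018, stood apart with a fiber marker mean of 7.12 to 8.44 on the log2 scale, against 9.93 to 10.8 in the other 7 injured limbs. In bulk tissue fewer muscle cells and less RNA per muscle cell cannot be told apart.

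In Sham muscle the receptors were dominated by the KLHL family, and within it by KLHL41. KLHL41 was listed at 1354 and 1311 TPM in the 2 Sham limbs and made up 53.6% and 51.6% of the summed TPM of all 74 genes. A further 3 members exceeded 100 TPM in both Sham limbs, namely TRIM63 (139.9 and 198 TPM), TRIM72 (120.1 and 127 TPM) and FBXO40 (113 and 117 TPM), the last a muscle F-box protein that targets the insulin signaling adaptor IRS1. These 4 genes were the only members above that level, and 24 members were at 10 TPM or more in both Sham limbs. By family, the Sham sums were 1519 and 1437 TPM for KLHL, 313 and 382 TPM for TRIM, 306 and 355 TPM for FBXO, 286 and 257 TPM for ASB, 68.1 and 60.2 TPM for FBXL and 34.2 and 47.2 TPM for FBXW.

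The summed receptor TPM was lower in every injured limb than in both Sham limbs, and this lay with a small set of genes. All 74 genes summed to 2526 and 2539 TPM in the Sham limbs and to 591 to 1726 TPM (median 1099.7) in the injured limbs. The 11 genes of a list of muscle-enriched ligases (ASB5, ASB11, ASB16, FBXL22, FBXO32, FBXO40, KLHL31, KLHL41, TRIM55, TRIM63 and TRIM72) summed to 2133 and 2088 TPM in Sham limbs and 157 to 1066 TPM (median 516) in injured limbs, without overlap. The other 63 genes summed to 394 and 451 TPM in Sham limbs and 434 to 768 TPM (median 569.99) in injured limbs, so that here the ranges overlapped. The muscle-enriched genes thus held 84.4% and 82.2% of receptor TPM in the Sham limbs and 22.8% to 70.5% in the injured limbs.

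**Figure D1:**
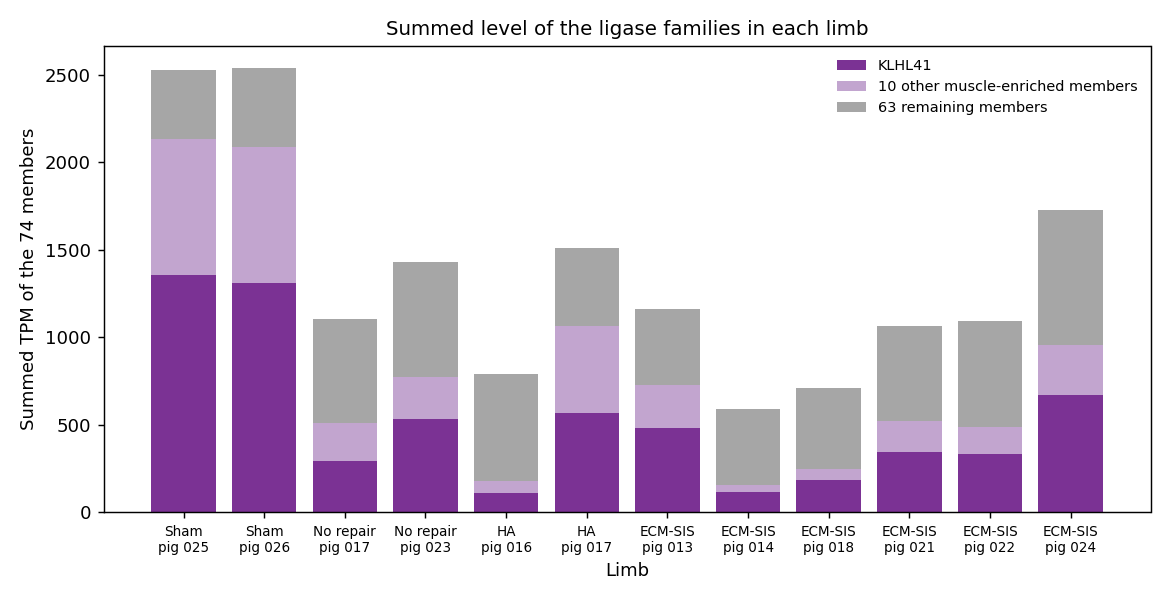
Summed TPM of the 74 receptor genes in each of the 12 limbs, stacked as KLHL41, the 10 other muscle-enriched genes and the 63 remaining genes; each bar is 1 limb and the y axis is linear and starts at 0. The Sham bars stand at 2526 and 2539 TPM, the tallest injured bar stands at 1726 TPM, and the part of the 63 remaining genes runs from 394 to 768 TPM.

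The family sums differed in this. KLHL sums were 162 to 787 TPM (median 415) in the injured limbs, ASB sums 40.95 to 192 TPM (median 102) and TRIM sums 86.9 to 300.2 TPM (median 162), all below both Sham limbs. FBXO sums ran from 187 to 369.8 TPM (median 259.8) in injured limbs and overlapped the Sham values. FBXW sums, at 39.97 to 69.1 TPM (median 59.5), overlapped Sham as well, and FBXL sums, at 65.1 to 118 TPM (median 88.7), had their lowest injured limbs within the Sham range.

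Of the 74 genes 63 passed the filter on low values and were tested, 50 of them with at least 1 TPM in every limb of all 4 groups. KLHL3 passed through the Sham group alone, and 8 genes passed through injured groups alone (ASB9, FBXL2, FBXO4, FBXW9, KLHL42, TRIM25, TRIM38 and TRIM52), which favors a difference in these 9 genes. ASB4, FBXL20, FBXL22 and KLHL23 passed through Sham and some injured groups.

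For VML-injured against Sham limbs limma called 22 of the 63 tested genes higher and 10 lower, that is 34.9% and 15.9%, where 49.4% and 7.66% of all tested genes were called higher and lower. The median log2 fold change was 0.50 for the receptor genes and 0.73 for all genes. After rescaling 13 receptor genes were higher and 26 lower (20.6% and 41.3%), beside 29.0% and 28.0% of all genes, with medians of -0.29 and 0.01. All 10 lower calls were lower on both scales. Of the 22 higher calls 13 were higher on both scales, and 9, among them ASB6, FBXL5, FBXO11, FBXO22, FBXO34, FBXW5, TRIM21 and TRIM59, were not called after rescaling. In 24 of the 74 genes all 10 injured limbs were above both Sham limbs and in 13 all were below, beside 42.0% and 6.88% of the 11506 genes. Without Sham replicate 1 or 2, where the remaining Sham limb is assumed to vary like the other groups, fewer receptor genes were called. This held among all tested genes too, and all or nearly all lower receptor calls were lost. The called receptor genes kept their sign in every fit that left out 1 library. Without HA replicate 1 there were 6 lower. Without the 3 limbs that stood apart, a choice made after seeing the data, 17 genes were higher, each also higher with all limbs, and 13 were lower, beside 46.9% and 7.26% of all genes.

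The families differed in their counts. Of all tested genes 49.4% were called higher and 7.66% lower as deposited, and 29.0% and 28.0% after rescaling. As deposited, the share called higher was 46.2% for TRIM, 50% for FBXL and 38.9% for FBXO. It was 66.7% for FBXW, 9.09% for KLHL and 20% for ASB. TRIM had 6 of 13 tested genes higher and 1 lower (median 0.80), FBXO 7 of 18 higher and 2 lower (median 0.60), FBXL 4 of 8 higher and 1 lower (median 0.68), and FBXW 2 of 3 higher (median 0.69). KLHL had 1 of 11 higher and 3 lower (median 0.23), and ASB 2 of 10 higher and 3 lower (median -0.58). After rescaling the counts of higher and lower were 4 and 3 for TRIM, 4 and 7 for FBXO, 2 and 3 for FBXL, 1 and 1 for FBXW, 1 and 6 for KLHL and 1 and 6 for ASB. No test between families was run.

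**Figure D2:**
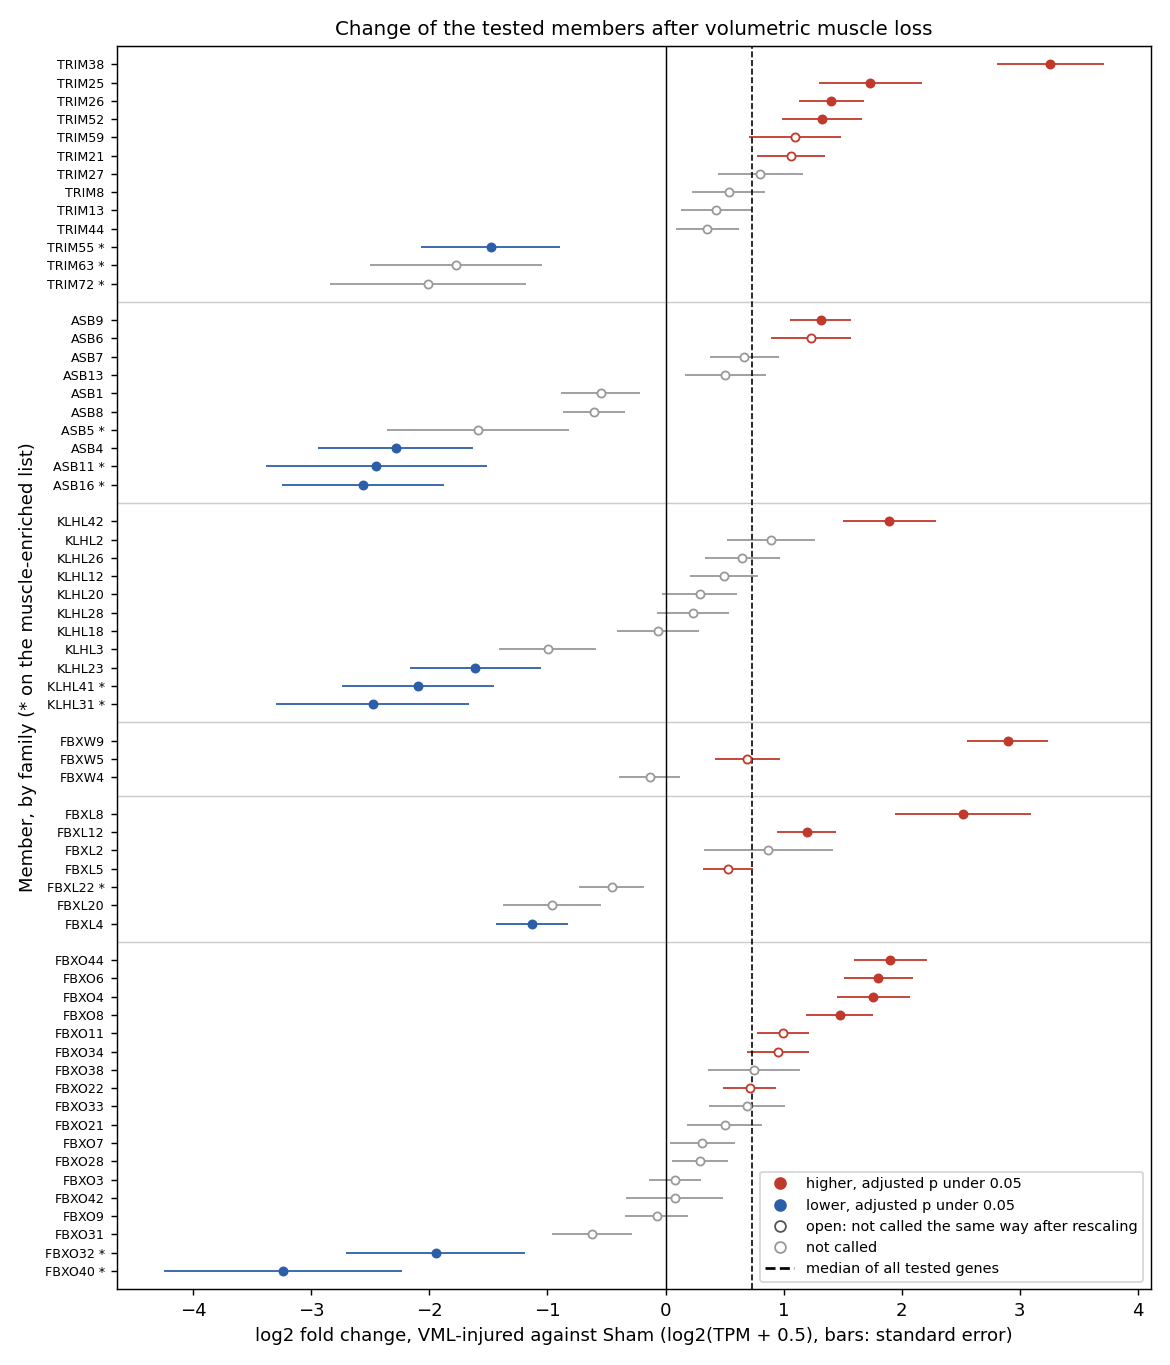
Log2 fold change ± SE of 62 of the 63 tested receptor genes for VML-injured against Sham limbs, by family, on the deposited scale; filled points were called in the same direction by limma before and after rescaling, an asterisk marks the muscle-enriched genes, and the dashed line is the median of all tested genes (0.73). The muscle-enriched genes lie toward the lower end of their families, from -3.24 to -0.46, and TRIM38 and FBXW9 lie at the upper end.

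Most of the 11 muscle-enriched genes were lower in injured limbs. Limma called 7 of them lower and 0 higher (0 higher also at an unadjusted p under 0.05), with a median log2 fold change of -2.01 beside 0.73 for all genes, and after rescaling 11 were lower with a median of -2.81. Among the 52 other tested receptor genes 22 were higher and 3 lower (42.3% and 5.77%, median 0.68). These shares were near those of all tested genes, of which 49.4% were called higher and 7.66% lower. After rescaling 28.0% of all tested genes were lower. Without the 3 limbs that stood apart, a choice made after seeing the data, the median change was smaller, at -1.38. The list was taken up with earlier results of these data known, so its direction is a description.

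FBXO40 had the lowest log2 fold change of all 63 tested genes. It was listed at 113 and 117 TPM in Sham, 16.3 and 26.2 TPM in No repair, 3.28 and 30.4 TPM in HA and 1.30 to 19.6 TPM (median 13.3) in ECM-SIS limbs. All 10 injured limbs were below both Sham limbs, and the lowest values were those of the 3 limbs with few fiber markers. The log2 fold change was -3.24 ± 1.01 (SE; adjusted p = 0.0175, limma), and smaller in size, at -2.39, without those 3 limbs.

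FBXO32, or atrogin-1, was lower in injured muscle. It stood at 33.9 and 42.4 TPM in Sham, 15.7 and 9.53 TPM in No repair, 3.41 and 32.3 TPM in HA and 1.98 to 18.04 TPM (median 7.52) in ECM-SIS limbs, with all injured limbs below both Sham limbs. The log2 fold change was -1.95 ± 0.76 (adjusted p = 0.0450, limma). The HA limb of pig 017 came within a small margin of the lower Sham limb, whereas the HA limb of pig 016 had about the level of the ECM-SIS limb of pig 014 (3.55 TPM).

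Of the 3 muscle TRIM genes TRIM55 was called lower and TRIM63 and TRIM72 missed the threshold. TRIM63, or MuRF1, was listed at 139.9 and 198 TPM in Sham, 52.5 and 44.1 TPM in No repair, 19.1 and 174 TPM in HA and 14.4 to 90.3 TPM (median 37.8) in ECM-SIS limbs. Because the HA limb of pig 017 lay between the Sham limbs the groups overlapped, and the log2 fold change of -1.77 ± 0.73 did not pass (adjusted p = 0.0553, limma). Without the 3 limbs that stood apart it was -1.10. Those limbs were chosen for low fiber markers after seeing the data, which narrows the spread of genes that follow the markers. TRIM72 was at 120.1 and 127 TPM in Sham and 5.14 to 67.4 TPM (median 33.9) in injured limbs, with 10 of 10 below both Sham limbs. Its log2 fold change was -2.01 ± 0.83 (adjusted p = 0.0567, limma), or -1.38 without those 3 limbs. TRIM55, or MuRF2, a titin-associated sarcomeric ligase, fell from 20.9 and 19.97 TPM to 2.07 to 14.99 TPM (median 7.08), again without overlap, with a log2 fold change of -1.48 ± 0.59 (adjusted p = 0.0478, limma).

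Of the kelch-like genes KLHL41, KLHL31 and KLHL23 were lower. KLHL41 went from 1354 and 1311 TPM in Sham to 295 and 533 TPM in No repair, 109 and 569 TPM in HA and 117 to 671 TPM (median 339) in ECM-SIS limbs. The highest injured limb was the ECM-SIS limb of pig 024, and the groups did not overlap. The log2 fold change was -2.10 ± 0.64 (adjusted p = 0.0155, limma). KLHL31, which acts on filamin C, was at 120.02 and 75.6 TPM in Sham and 3.17 to 38.7 TPM (median 20.5) in injured limbs, all below both Sham limbs, with a log2 fold change of -2.48 ± 0.81 (adjusted p = 0.0223, limma). KLHL23, outside the muscle-enriched list, stood at 12.98 and 9.03 TPM in Sham and 0.694 to 6.33 TPM (median 2.82) in injured limbs, without overlap, and was lower by limma (log2 fold change -1.61 ± 0.56, adjusted p = 0.0257).

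Of the 3 muscle ASB genes ASB16 and ASB11 were lower. ASB16 was at 59.3 and 62.9 TPM in Sham and 1.93 to 20.6 TPM (median 11.96) in injured limbs (log2 fold change -2.56 ± 0.68, adjusted p = 0.00796, limma). ASB11 was at 78.4 and 65.8 TPM in Sham and 2.01 to 49.7 TPM (median 13.8) in injured limbs (log2 fold change -2.45 ± 0.94, adjusted p = 0.0424, limma). Neither overlapped between Sham and injured limbs, and in both the HA limb of pig 017 was the highest injured limb. ASB5, at 90.4 and 66.6 TPM in Sham and 5.21 to 69.9 TPM (median 26.9) in injured limbs, overlapped because of that same limb and did not pass (log2 fold change -1.59 ± 0.77, adjusted p = 0.0958, limma). ASB4, which is best known from blood vessels and is outside the list, fell from 14.7 and 12.3 TPM to 0.268 to 6.85 TPM (median 2.67), all injured limbs lying below both Sham limbs (log2 fold change -2.28 ± 0.66, adjusted p = 0.0108, limma).

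Among the FBXL genes FBXL22, which binds sarcomeric proteins at the Z-disc, was low throughout, at 2.70 and 2.16 TPM in Sham and 0.949 to 2.40 TPM (median 1.45) in injured limbs, with 9 of 10 injured limbs below both Sham limbs. Its log2 fold change of -0.46 ± 0.27 did not pass (adjusted p = 0.171, limma). FBXL4, a mitochondrial F-box protein that restrains mitophagy, fell from 24.7 and 17.2 TPM to 5.65 to 13.8 TPM (median 8.73) without overlap (log2 fold change -1.13 ± 0.30, adjusted p = 0.00762, limma). FBXL4 had the smallest adjusted p of the 10 lower genes.

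**Figure D3:**
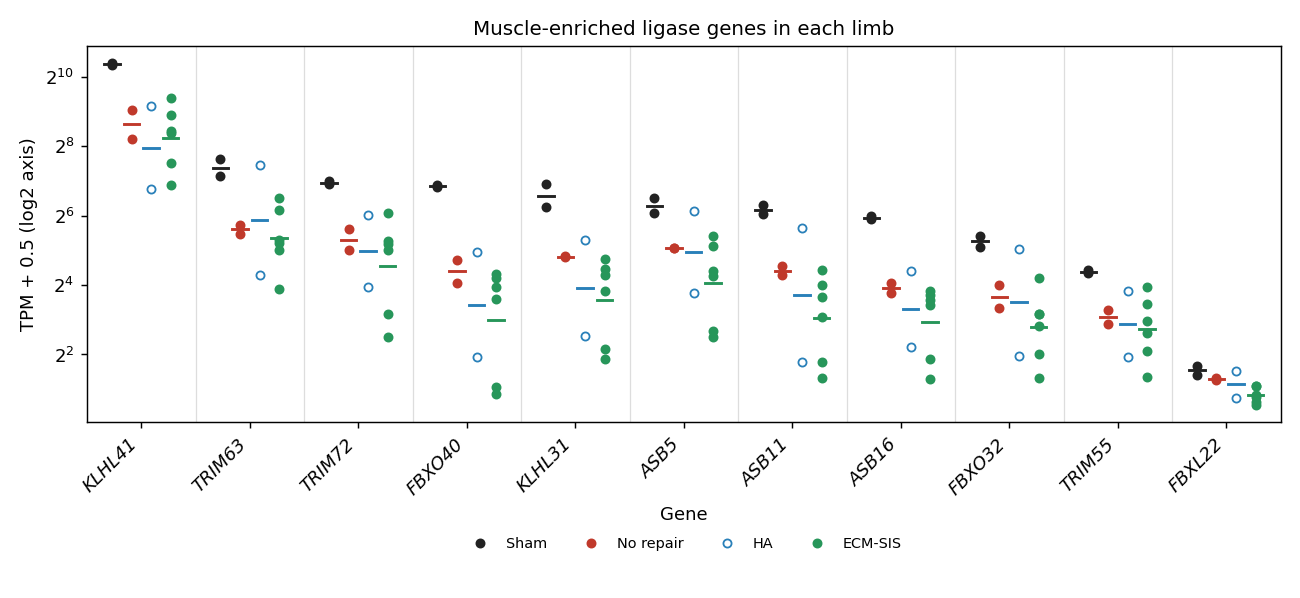
TPM + 0.5 of the 11 muscle-enriched receptor genes in each limb, on a log2 axis; each point is 1 limb, colored by group, and the horizontal bar is the mean of the log2 values of a group. In 8 of the 11 panels all injured points lie below both Sham points, the exceptions being ASB5, FBXL22 and TRIM63, where an injured limb reached the Sham range.

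These changes were next set against the muscle fibers themselves, by subtracting the mean log2 level of the 16 fiber markers from each gene in each limb. Relative to the markers 0 of the 11 muscle-enriched genes were called lower or higher by limma (0 also at an unadjusted p under 0.05), and their median log2 difference was 0.31. On this scale 44 of the 63 receptor genes were higher and 0 lower (69.8%; 0 lower at an unadjusted p under 0.05), beside 80.6% and 0.0114% of all tested genes, with medians of 2.82 for receptor genes and 3.05 for all genes. Limma gave an SE near 1 for each muscle-enriched gene on this scale, because it draws each SE toward the spread of all tested genes. Genes that do not follow the markers take on the variation of the markers here. A change of 2-fold relative to the markers could therefore not have been told from 0. The absence of calls thus decides nothing for these genes. KLHL41 was 0.22 ± 1.15 and FBXO32 0.37 ± 1.02 on this scale, and TRIM72 was 0.31 ± 1.05. FBXO40 had the lowest value of the 11 genes on this scale, at -0.92 ± 1.03 (adjusted p = 0.388, limma), with all 10 injured limbs below both Sham limbs, which were both at -5.16, while the injured limbs ran from -6.85 to -5.75. In the other direction TRIM55 and FBXL22 were above both Sham limbs in 10 of 10 injured limbs relative to the markers, with differences of 0.84 ± 1.01 and 1.86 ± 0.97 that did not pass (adjusted p = 0.426 and 0.0664, limma).

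Among the injured limbs the muscle-enriched genes also followed the fiber markers. Because 3 limbs stood apart, the relation was first read within the other 7, where Pearson's r of gene against marker mean was 0.50 to 0.92 over the 11 genes (median 0.69) and 2 genes passed an exact permutation test, two-sided and adjusted over the 11, namely FBXO40 (r = 0.92, p = 0.0016, adjusted p = 0.017) and ASB16 (r = 0.90, p = 0.004, adjusted p = 0.022). Over all 10 limbs 10 of the 11 genes passed by Pearson's r in a permutation test (adjusted p from 0.00011 for ASB16 to 0.0068 for TRIM63). The same 10 passed by Spearman's rho (adjusted p from 0.002 for FBXO40 to 0.022 for TRIM63, permutation test). For 8 of them the call was made only with the 3 limbs included. With fewer limbs and a narrower marker range the 7 limbs could miss a relation, so that these 8 genes stay undecided within the 7. Over all limbs r was 0.98 for FBXO40, 0.98 for TRIM72, 0.90 for KLHL41 and 0.78 for TRIM63, and the lowest was 0.54 for FBXL22 (adjusted p = 0.11, permutation test). Without the 2 limbs farthest from the median of the marker mean r was 0.61 to 0.98 over the 11 genes. The 52 other receptor genes ran from -0.66 (TRIM38) to 0.93, with a median of 0.31, given as a description since all genes share the libraries. Gene and marker values of a limb come from the same library. Pig 017 gave 2 of the 7 limbs, with the lowest (No repair, 9.93) and the highest (HA, 10.8) marker mean among them. The permutations treated these 2 limbs as independent.

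**Figure D4:**
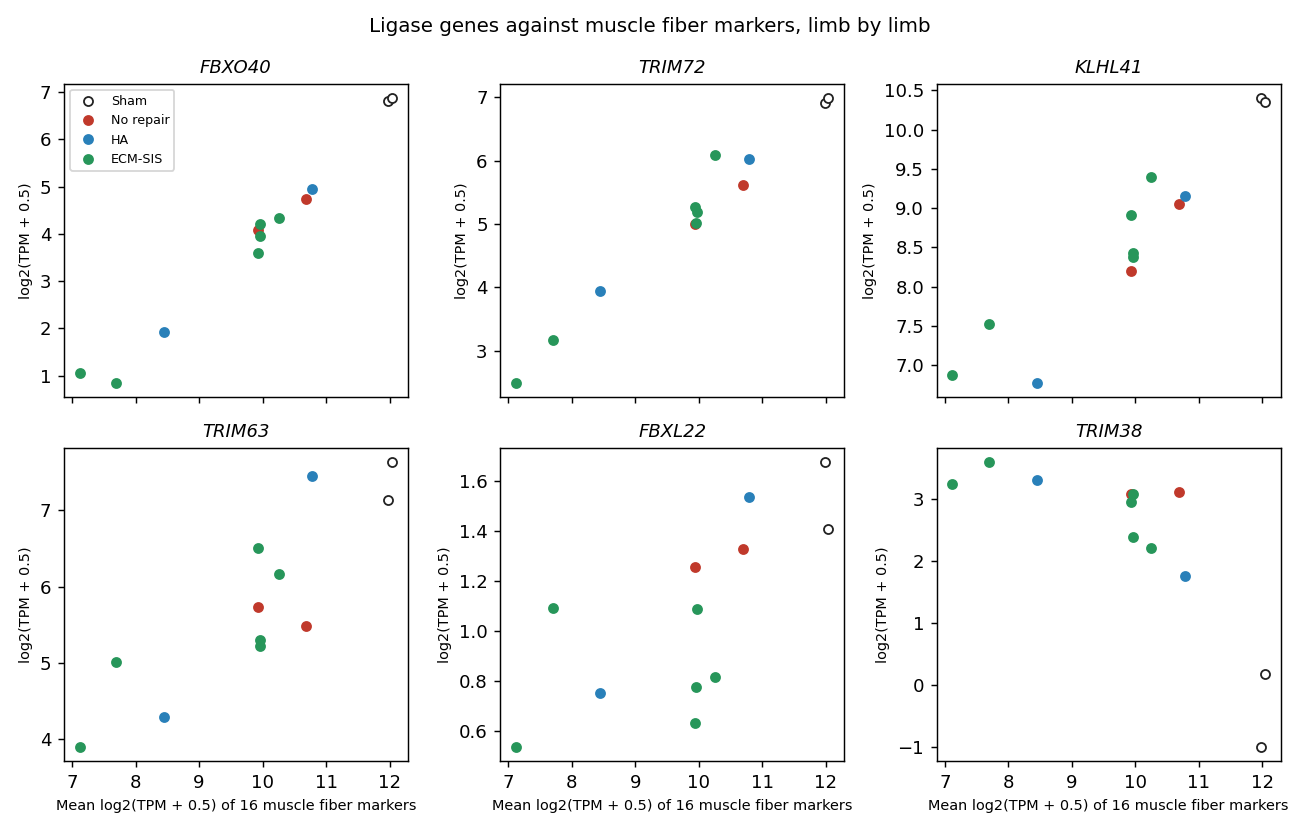
Log2(TPM + 0.5) of 6 receptor genes (FBXO40, TRIM72, KLHL41, TRIM63, FBXL22 and TRIM38) against the mean log2 level of 16 muscle fiber markers; each point is 1 limb, colored by group. FBXO40, TRIM72, KLHL41 and TRIM63 rise with the markers from the 3 injured limbs at 7.12 to 8.44 through the other 7 to the Sham limbs at 11.98 and 12.04, whereas TRIM38 is lowest in the Sham limbs.

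A split by level, taking as muscle-enriched the genes whose highest group mean was that of Sham, gave 21 of 74 genes, and the values that made the split carry no test. They were the 11 genes of the list together with ASB1, ASB4, ASB8, FBXL4, FBXL20, FBXO31, KLHL3, KLHL23 and the untested TRIM15 and TRIM33. The ratio of the Sham mean to the highest injured group mean was 5.41 for FBXO40, 4.19 for ASB16, 3.54 for ASB4, 3.51 for KLHL31 and 3.22 for KLHL41. Just inside the edge stood TRIM15 at 1.18 and FBXL22 at 1.24, and just outside it FBXW4 at 0.944 and FBXO9 at 0.879. Of the other 53 genes 38 had their highest group mean in No repair, 6 in HA and 9 in ECM-SIS limbs. FBXO31, an F-box protein of the DNA damage response, was the most abundant of the 10 genes outside the list, at 40.1 and 63.02 TPM in Sham and 16.4 to 41.2 TPM (median 32.96) in injured limbs, and was not called (log2 fold change -0.62 ± 0.34, adjusted p = 0.131, limma), though it was lower after rescaling (-1.42, adjusted p = 0.000836, limma).

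The 22 receptors that rose had Sham means from 0.315 TPM for TRIM38 to 22.04 TPM for FBXL5 and injured means from 1.95 TPM for TRIM52 to 38.4 TPM for FBXO11. TRIM38, which acts in innate immune signaling, was listed at 8.08e-09 and 0.629 TPM in the Sham limbs and at 2.89 to 11.6 TPM (median 7.95) in injured limbs, with no overlap. Its log2 fold change was 3.26 ± 0.45 (adjusted p = 7.52e-05, limma), a size that depends on the added 0.5 because 1 Sham limb is in effect at 0. TRIM25, which ubiquitinates the RNA sensor RIG-I, rose from 0.794 and 1.49 TPM to 2.18 to 11.7 TPM (median 5.70) (log2 fold change 1.73 ± 0.44, adjusted p = 0.00518, limma). TRIM26, another regulator of antiviral signaling, rose from 3.79 and 6.16 TPM to 9.30 to 18.02 TPM (median 13.97) (log2 fold change 1.40 ± 0.28, adjusted p = 0.00107, limma). In both genes every injured limb was above both Sham limbs.

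Of the 5 TRIM genes of innate immunity 4 were called higher as deposited and 3 after rescaling, beside 49.4% and 29.0% of all genes. TRIM25 and TRIM38 had passed the filter through injured groups alone, and of the 3 genes left without them 2 were called as deposited and 1, TRIM26, on both scales. The gene that was called as deposited alone was TRIM21, the cytosolic antibody receptor, which had gone from 2.30 and 2.92 TPM to 3.91 to 8.40 TPM (median 6.39) (log2 fold change 1.07 ± 0.29, adjusted p = 0.00784, limma). TRIM8 was not called on either scale, with 0.53 as deposited (adjusted p = 0.153, limma) and -0.23 with the opposite sign after rescaling. TRIM52 and TRIM59 were higher as well, at 1.33 ± 0.34 and 1.10 ± 0.39 (adjusted p = 0.00534 and 0.0295, limma), the latter not called after rescaling. TRIM52 too had passed the filter through injured groups alone. The summed macrophage and T and NK cell markers were higher in the same limbs, at 3.51 and 5.97 TPM in Sham and 14.5 to 75.9 TPM (median 27.9) in injured limbs for the latter, and their part in these rises was not tested.

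The 2 tested F-box genes of the group that holds glycoprotein-binding receptors were also called higher on both scales. Of all tested genes 49.4% were called higher as deposited and 29.0% after rescaling. FBXO6 rose from 3.86 and 7.61 TPM in Sham to 20.5 and 18.6 TPM in No repair, 27.5 and 13.3 TPM in HA and 18.4 to 24.97 TPM (median 23.6) in ECM-SIS limbs. FBXO44, its close relative, rose from 1.82 and 3.85 TPM to 7.41 to 16.5 TPM (median 12.2). Neither gene overlapped between Sham and injured limbs. The log2 fold changes were 1.80 ± 0.29 and 1.90 ± 0.31 (adjusted p = 0.000267 and 0.000270, limma), and both stayed higher after rescaling at 1.05 and 1.20. FBXO2, the third gene of this group in the table and known mainly from brain, reached at most 0.767 TPM and was not tested.

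Other F-box genes rose as well. FBXW9 went from 0.499 and 1.21 TPM to 6.06 to 13.9 TPM (median 9.27) and had the smallest adjusted p of all receptor genes (log2 fold change 2.89 ± 0.34, adjusted p = 2.48e-05, limma). FBXL8 rose from 2.10 and 4.12 TPM to 8.34 to 44.1 TPM (median 21.2), the widest range in TPM among the rising genes, with the ECM-SIS limb of pig 022 the highest (log2 fold change 2.52 ± 0.58, adjusted p = 0.00300, limma). FBXO4, which has been linked to cyclin D1 turnover, rose from 0.278 and 0.486 TPM to 1.45 to 4.13 TPM (median 2.50) (log2 fold change 1.76 ± 0.31, adjusted p = 0.000492, limma). None of these 3 genes overlapped between Sham and injured limbs. FBXW9 and FBXO4 had passed the filter through injured groups alone, which favors a difference in them. FBXO8, which carries a Sec7 domain beside its F-box, was higher by 1.47 ± 0.28 and FBXL12 by 1.20 ± 0.25 (adjusted p = 0.000905 and 0.00154, limma).

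Of the KLHL and ASB genes 3 rose. KLHL42, which targets the microtubule-severing enzyme katanin, was listed at 0.396 and 0.458 TPM in Sham and 1.40 to 6.37 TPM (median 3.21) in injured limbs, without overlap (log2 fold change 1.89 ± 0.39, adjusted p = 0.00148, limma). ASB9, whose known partner is creatine kinase, rose from 0.860 and 1.26 TPM to 2.47 to 5.62 TPM (median 3.47), again without overlap (log2 fold change 1.31 ± 0.26, adjusted p = 0.00107, limma). ASB6 rose from 2.30 and 4.13 TPM to 4.95 to 11.6 TPM (median 7.60) as deposited (log2 fold change 1.24 ± 0.34, adjusted p = 0.00833, limma) but was not called after rescaling. In the ASB family the genes thus ran from -2.56 for ASB16 to 1.31 for ASB9. Both KLHL42 and ASB9 had passed the filter through injured groups alone, which favors a difference in them.

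**Figure D5:**
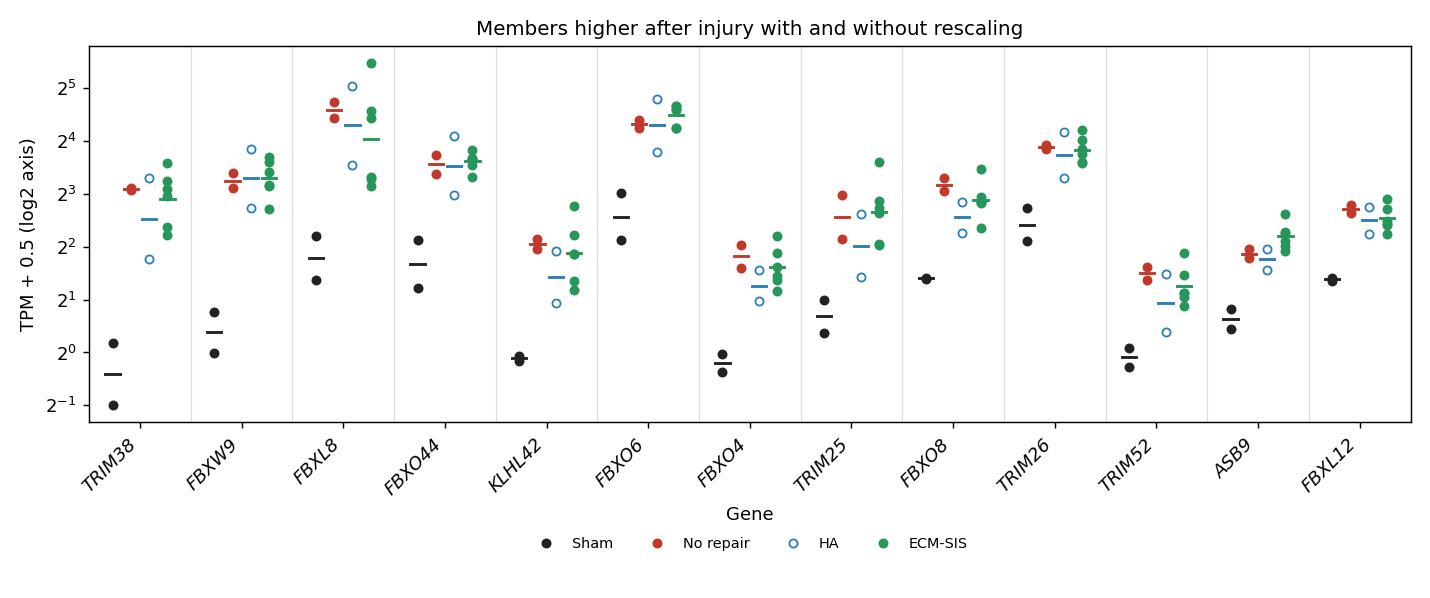
TPM + 0.5 of the 13 receptor genes called higher in VML-injured than Sham limbs by limma both as deposited and after rescaling, on a log2 axis; each point is 1 limb, colored by group, and the horizontal bar is the mean of the log2 values of a group. In every panel the 10 injured points lie above both Sham points, as in 42.0% of the 11506 genes of the table. The panels were picked by their calls in these same data. ASB9, FBXO4, FBXW9, KLHL42, TRIM25, TRIM38 and TRIM52 passed the filter through injured groups alone, which favors such a separation.

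The remaining higher genes had log2 fold changes near the median of all genes. FBXL5, the iron sensor that controls IRP2, went from 23.1 and 20.96 TPM to 25.5 to 38.8 TPM (median 33.3) and all injured limbs were above both Sham limbs, yet its log2 fold change of 0.53 ± 0.21 as deposited (adjusted p = 0.0468, limma) became -0.26 after rescaling. FBXW5 did likewise, with 0.69 as deposited (adjusted p = 0.0470, limma) and -0.09 rescaled. FBXO22 went from 0.71 as deposited (adjusted p = 0.0174, limma) to -0.02 rescaled. FBXO34 was 0.95 as deposited (adjusted p = 0.00851, limma) and 0.23 rescaled. FBXO11, known for targeting BCL6, was called higher in every fit that left out 1 library (0.99, adjusted p = 0.00232, limma) but not after rescaling (0.21). The first of these also held for FBXL12, FBXO44, FBXO6, FBXO8 and TRIM26. It held as well for ASB9, FBXO4, FBXW9, KLHL42 and TRIM38, but these passed the filter through injured groups alone, which favors a difference. The lower genes lost their calls without Sham replicate 1, where a single Sham limb is left.

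The 31 tested genes that were not called as deposited included several abundant receptors. FBXW4 was at 21.4 and 25.1 TPM in Sham and 13.1 to 28.3 TPM (median 21.02) in injured limbs (log2 fold change -0.13 ± 0.26, adjusted p = 0.672, limma). FBXO9, FBXO3 and FBXO7 stood at 19.4 and 24.7, 16.5 and 13.3 and 10.7 and 12.01 TPM in the 2 Sham limbs, with log2 fold changes of -0.07 ± 0.27, 0.08 ± 0.22 and 0.31 ± 0.27. KLHL12, an adaptor for collagen export in large COPII vesicles, was at 16.5 and 23.5 TPM in Sham and 18.8 to 35.6 TPM (median 30.01) in injured limbs, with 0.49 as deposited (adjusted p = 0.153, limma) and the opposite sign, -0.29, after rescaling. FBXO21, which has been linked to muscle atrophy, was 0.50 as deposited (adjusted p = 0.197, limma) and -0.29 rescaled. KLHL18, a receptor for Aurora A, was near 0 at -0.06 ± 0.35, and ASB8 was -0.60 ± 0.26 (adjusted p = 0.882 and 0.0636, limma). KLHL3, which targets WNK kinases of salt balance, was at 1.92 and 1.35 TPM in Sham and 0.122 to 1.90 TPM (median 0.391) in injured limbs (log2 fold change -0.999 ± 0.41, adjusted p = 0.0538, limma).

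Rescaling called 16 of these 31 genes lower, namely ASB1, ASB5, ASB8, FBXL20, FBXL22, FBXO3, FBXO7, FBXO9, FBXO28, FBXO31, FBXW4, KLHL3, KLHL18, KLHL20, TRIM63 and TRIM72. The other 15 were called on neither scale, namely ASB7, ASB13, FBXL2, FBXO21, FBXO33, FBXO38, FBXO42, KLHL2, KLHL12, KLHL26, KLHL28, TRIM8, TRIM13, TRIM27 and TRIM44. These 15 had log2 fold changes of 0.08 to 0.89 as deposited, and all but 2 of them, FBXO21 and KLHL12, had a Sham mean below 10 TPM.

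The repair groups were then each set against the same 2 Sham limbs, so that the 3 comparisons share their controls. In No repair limbs limma called 23 receptor genes higher and 0 lower (2 lower at an unadjusted p under 0.05), beside 45.1% and 1.18% of all genes. In HA limbs it called 13 higher and 3 lower, beside 33.9% and 3.76%, and in ECM-SIS limbs 21 higher and 18 lower, beside 48.0% and 10%. After rescaling the counts were 9 higher and 21 lower in No repair, beside 22.1% and 20.8% of all genes, 9 and 20 in HA, beside 23.4% and 19.2%, and 12 and 25 in ECM-SIS limbs, beside 29.5% and 29.4%. The deposited receptor medians were 0.64, 0.39 and 0.42, and those of all genes 0.89, 0.60 and 0.71. The 18 lower genes in ECM-SIS limbs included all 11 muscle-enriched genes, of which HA had 2 lower and No repair 0 (1 at an unadjusted p under 0.05), whereas after rescaling 11 were lower in ECM-SIS, 6 in HA and 9 in No repair limbs. ECM-SIS is the group with 6 limbs, and the count of 0 in No repair depended on the TPM scale and on the spread taken from the other groups: without the 3 limbs that stood apart 11 genes were lower in No repair limbs, and with the Sham and No repair limbs alone 13 were. Without the 3 limbs HA, then a single limb assumed to vary like the other groups, had 2 higher and 2 lower. Leaving out 1 library moved several counts: No repair had 10 higher without Sham replicate 1 or No repair replicate 2 and 4 lower without HA replicate 1 or HA replicate 2 and 1 lower without ECM-SIS replicate 2, and ECM-SIS had 12 higher and 2 lower without Sham replicate 1 and 5 lower without Sham replicate 2. HA had 3 higher without Sham replicate 1 or HA replicate 1, and its lower count was 12 without HA replicate 2, 7 without ECM-SIS replicate 2 or 6, 5 without ECM-SIS replicate 3, 1 without Sham replicate 2, and 0 without Sham replicate 1 or HA replicate 1 (3 and 1 at an unadjusted p under 0.05, limma).

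By gene, FBXO40 differed from Sham by -2.44 ± 1.27 in No repair, -3.41 ± 1.27 in HA and -3.85 ± 1.03 in ECM-SIS limbs (log2 ± SE). KLHL41 differed by -1.75 ± 0.81, -2.41 ± 0.81 and -2.13 ± 0.66 in the same order. FBXO32 differed by -1.59 ± 0.95, -1.76 ± 0.95 and -2.48 ± 0.78. The differences between the injured groups in these genes were not called. Among rising genes FBXW9 differed by 2.87 ± 0.43, 2.91 ± 0.43 and 2.91 ± 0.35, and FBXO6 by 1.75 ± 0.37, 1.73 ± 0.37 and 1.93 ± 0.30.

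The 2 HA limbs differed strongly in the muscle-enriched genes. The limb of pig 017 exceeded that of pig 016 in 11 of 11 genes, from 2.03-fold for FBXL22 to 16.8-fold for ASB11, with FBXO32 at 9.45-fold and TRIM63 at 9.14-fold. The HA limb of pig 017 also exceeded the No repair limb of the same pig in 11 of 11, from 1.27-fold for FBXL22 to 3.32-fold for TRIM63. These are ratios of single limbs, with no replicate. Fiber markers moved with them: their sum was 66815 TPM in the HA limb of pig 017, 33297 TPM in its No repair limb and 10102 TPM in the HA limb of pig 016.

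Between the injured groups no receptor gene was called. Limma called 0 of 63 genes for ECM-SIS against No repair, ECM-SIS against HA, HA against No repair and ECM-SIS against the mean of the other two, beside 0% of all tested genes in each, and at an unadjusted p under 0.05 there were 0, 1, 1 and 0 receptor genes. The smallest p values belonged to KLHL28, for HA against No repair limbs (log2 difference -0.96 ± 0.38, unadjusted p = 0.0269, adjusted p = 0.912, limma) and for ECM-SIS against HA limbs (0.68 ± 0.31, unadjusted p = 0.0490, adjusted p = 0.9996, limma). KLHL28 stood at 3.24 and 3.16 TPM in No repair, 1.28 and 1.55 TPM in HA and 1.84 to 4.79 TPM (median 2.27) in ECM-SIS limbs, so that the HA limbs were below all others. For ECM-SIS against No repair the smallest p was that of KLHL23, at -1.14 ± 0.57 (unadjusted p = 0.0686, adjusted p = 0.904, limma), and for ECM-SIS against the mean of the other two that of ASB1, at -0.56 ± 0.27 (unadjusted p = 0.0622, adjusted p = 0.9995, limma). The median 95% half-width of a log2 difference over the 63 genes, before adjustment, was 0.71, 0.71, 0.87 and 0.56 in the 4 comparisons. For a typical gene, differences of that size or smaller could not be shown. Most muscle-enriched genes were less precise, so that larger differences could be missed in them. For ECM-SIS against No repair the SE was 1.03 for FBXO40 and 0.78 for FBXO32, though 0.28 for FBXL22.

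The machinery that these receptors plug into was read in lists taken up with earlier results known, beside 49.4% higher and 7.66% lower (median 0.73) of all tested genes as deposited and 29.0% and 28.0% (median 0.01) after rescaling. Of 7 cullin scaffolds and adaptors 2 rose and 1 fell as deposited (median -0.17), and 5 were lower after rescaling (median -0.96). CUL5, the scaffold of the ASB ligases, fell from 12.9 and 10.1 TPM to 1.72 to 6.94 TPM (median 3.26) with all 10 injured limbs below both Sham limbs (log2 fold change -1.50 ± 0.39, adjusted p = 0.00618, limma). CUL1, the scaffold of the F-box ligases, was -0.17 ± 0.28 and was not called as deposited (adjusted p = 0.617, limma) but was lower after rescaling at -0.96. DDB1, the adaptor of CUL4 ligases, rose by 1.24 ± 0.22 and elongin B (TCEB2), an adaptor of CUL2 and CUL5 ligases, by 0.99 ± 0.31 (adjusted p = 0.000435 and 0.0160, limma), with 0.45 and 0.18 after rescaling, where neither was called.

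Of 14 tested genes of neddylation, the modification that activates cullins, and of cullin exchange 1 rose and 3 fell (median 0.01), and 12 were lower after rescaling (median -0.77). DCUN1D1, which helps NEDD8 onto cullins, fell by 1.22 ± 0.32 on the log2 scale (adjusted p = 0.00599, limma), and the COP9 signalosome subunits COPS4 and COPS5 changed by -0.62 and -0.66. NEDD8 itself was 0.47 as deposited (adjusted p = 0.0436, limma) and -0.32 rescaled. Of 31 tested ubiquitin, E1 and E2 genes 18 rose and 4 fell (median 0.59), beside the 49.4% and 7.66% of all genes, among them UBE2C, the E2 enzyme of the anaphase-promoting complex, at 2.50 ± 0.36, and UBE2G1 and CDC34 at -1.86 ± 0.48 and -1.62 ± 0.45, but after rescaling 3 were higher and 9 lower (median -0.20). Of 17 other tested receptors of these complexes 5 rose and 1 fell (median 0.62), led by the cytokine signaling inhibitor SOCS1 at 2.48 ± 0.34, and after rescaling 3 were higher and 6 lower (median -0.14).

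Among 18 known substrates and partners of the muscle ligases 12 fell and 1 rose (median -2.09), and 16 and 1 after rescaling (median -2.89), with desmin (DES) at -2.08 ± 0.60 and filamin A (FLNA) the one that rose at 2.94 ± 0.76 (adjusted p = 0.0111 and 0.00684, limma). Many of them are sarcomere genes, and several, from among NEB, MYH7, TNNI2, TTN and CKM, are themselves fiber markers. Relative to the fiber markers the list had a median of 0.22 with 1 gene higher. The overlap draws this median toward no difference by construction. Of 20 regulators of the atrophy ligases 6 rose and 8 fell (median -0.79), and 3 were higher and 14 lower after rescaling (median -1.56). The 8 that fell were ACVR2B, FOXO4, IRS1, MEF2A, MEF2C, MSTN, MYOD1 and PPARGC1A. Myostatin (MSTN), an inhibitor of muscle growth, fell from 13.9 and 12.4 TPM to 0.350 to 5.19 TPM (median 1.51) (log2 fold change -2.50 ± 0.57, adjusted p = 0.00273, limma), and IRS1, the target of FBXO40, changed by -1.83 ± 0.46 (adjusted p = 0.00509, limma). The growth factor IGF1 rose from 1.28 and 2.65 TPM to 15.4 to 50.6 TPM (median 28.3) (log2 fold change 3.59 ± 0.36, adjusted p = 7.89e-06, limma), and the kinase AKT1 rose by 1.75 ± 0.31 (adjusted p = 0.000532, limma). Both stayed higher after rescaling, as did SMAD2.

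The 11 untested genes (FBXL16, FBXO2, FBXO16, FBXO43, KLHL1, TRIM9, TRIM15, TRIM29, TRIM33, TRIM46 and TRIM50) reached at most 1.28 TPM in any limb, in FBXO43. A further 8 genes carry LOC names in the table and receptor symbols in RefSeq (FBXO10, FBXW2, FBXW7, KLHL7, KLHL21, KLHL32, TRIM23 and TRIM24), and were left out because the rule reads names as deposited. Of these 6 were tested and 1 was called as deposited, FBXO10, at 0.303 and 0.651 TPM in Sham and 1.16 to 3.85 TPM (median 2.31) in injured limbs (log2 fold change 1.48 ± 0.38, adjusted p = 0.00581, limma), which was also higher after rescaling at 1.03. KLHL21 had all 10 injured limbs below both Sham limbs, at 7.82 and 10.98 TPM in Sham and 1.10 to 7.55 TPM (median 3.63) in injured limbs, but was not called as deposited (log2 fold change -1.16 ± 0.47, adjusted p = 0.0512, limma). After rescaling KLHL21 (-1.92), FBXW7 (-1.14), TRIM23 (-1.14) and TRIM24 (-1.31) were lower. FBXW2 was at 5.10 and 7.76 TPM in Sham and 6.22 to 15.2 TPM (median 9.71) in injured limbs, with a log2 fold change of 0.57 ± 0.30 that did not pass (adjusted p = 0.114, limma).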

How the data were processed

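RNA-seq of PT muscle from 12 limbs (2 Sham, 2 No repair, 2 HA and 6 ECM-SIS) was analysed from the table deposited by the authors, which holds 1 column of TPM per limb and 1 row per gene. Per the labels and the study's methods the authors estimated TPM with kallisto, and DESeq is also named (versions not given in the sources used here). The TPM columns of the 11506 deposited genes held 71.5% to 82.7% of the full TPM total, and all columns matched a sample by name. Since TPM keeps no read count, depth per library is unknown and no counting interval is given. A change in abundant transcripts moves every other TPM value of a library, which is why rescaled values stand beside the deposited ones.

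Values were analysed as log2(TPM + 0.5) with limma 3.58.1 in R 4.3.3 (empirical Bayes with trend and robust estimation, all 12 limbs in 1 fit, 4 groups), on 8782 genes, each reaching 1 TPM throughout 1 group or more. VML-injured is the mean of the 3 injured groups. P-values were adjusted by the Benjamini-Hochberg method, with a threshold of 0.05, and the procedure was tested on simulated data. Rescaling used trimmed means (30% of ratios and 5% of abundance at each end). Levels relative to muscle fibers subtract the mean of 16 marker genes. Correlations used 100000 resamples, or all permutations below 10 limbs (Python 3.11.15, scipy 1.17.1, numpy 2.4.6, pandas 2.3.3; figures by matplotlib 3.10.9).

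The receptor genes and all gene lists were chosen with earlier results of these data known. Described singly by rule were the muscle-enriched genes, the 3 largest rises and falls among called genes and the 3 highest Sham levels of each family, the members of the role lists, and the 3 smallest p-values of each comparison between injured groups. A member that entered the counts and sums of the receptor genes is not reported here by itself. Further genes were named, after their values were seen, to account for every member. Alternatives covered scaling, pseudocount, filter, spread estimation, the pig with 2 limbs and each library in turn. Sequences were not analysed here, and coordinates are not given because the reference at hand was of another build.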

Additional observations from a re-analysis of the deposited data

Results flagged for a closer look

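In the ECM-SIS group the limb of pig 024 lay far above the other 5 limbs in 2 of the 41 receptor genes looked at. KLHL2 stood at 14.59 TPM there, against a next highest limb of 6.69 TPM and a lowest of 4.673 TPM, so that the gap was 0.797 of the range. KLHL28 stood at 4.788 TPM, against 2.87 and 1.835 TPM, a gap of 0.65 of the range. Chance would mark about 1 in 20 independent groups. The 41 genes share the same limbs and both marks fall on 1 limb, so that the count was not set against chance. The cause was not tested.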

How the results depend on the processing

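The limits of these comparisons lie in the 2 Sham limbs and in the TPM scale, and depth cannot be judged. After rescaling by trimmed means or by the median of ratios the VML-injured counts were 13 higher and 26 lower by both, No repair had 9 higher and 21 lower by both, HA had 20 and 21 lower, and ECM-SIS had 12 and 13 higher. With a pseudocount of 1, No repair had 1 lower and HA 5 lower. With at least 1 TPM required in all libraries, where fewer genes are tested, VML-injured limbs had 15 higher and 10 lower. No repair then had 16 higher, HA 8 and ECM-SIS 14. With no filter or with a pseudocount of 0.1, VML-injured limbs had 22 higher and 8 lower. With the libraries of the compared groups alone HA had 6 higher and No repair 13 lower, and this alternative equals the reported fit for VML-injured limbs. Without both libraries of pig 017 HA had 11 lower. Without the 3 limbs of low fiber markers, a choice made after seeing the data, No repair had 11 lower and HA 2 higher, and 2 rather than 10 muscle-enriched genes passed the correlation with the fiber markers. Leaving out each replicate in turn gave 11 to 26 higher and 0 to 15 lower for VML-injured limbs, 10 to 27 and 0 to 4 for No repair, 3 to 18 and 0 to 12 for HA, and 12 to 21 and 2 to 19 for ECM-SIS. Counts between injured groups were 0 under every alternative run. Rescaling turned the sign of 16 of the 63 tested genes, and the values by the 2 methods, computed for the genes of the naming rule alone, were FBXL5 (-0.26 and -0.27), FBXO21 (-0.29 and -0.30), FBXW5 (-0.090 and -0.10), KLHL12 (-0.29 and -0.30), KLHL28 (-0.44 and -0.45) and TRIM8 (-0.23 and -0.25). KLHL18 turned to 0.032 without both libraries of pig 017 and to 0.12 without Sham replicate 2, and over the fits that left out 1 library FBXO3 ran from -0.070 to 0.23, FBXO9 from -0.25 to 0.097 and FBXO42 from -0.097 to 0.25, none of the 4 genes being called in those fits. Relative to the fiber markers leaving out each replicate in turn moved KLHL31 from -0.52 to 0.20, the latter without Sham replicate 1, and ASB11 from -0.38 to 0.12, which turned without Sham replicate 1 (0.023) or HA replicate 1. Beyond the construction of each alternative the cause was not tested. No paired analysis was possible because the titles give a pig number but only pig 017 gave 2 limbs, so that the groups compared share at most 1 pig and a term for each pig leaves 0 residual degrees of freedom.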
